A study of Mus musculus with 7 samples.

Results

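RNA of Osr1-GFP-positive cells that carried the integrin Itga8 and lacked the receptor Pdgfra, sorted from the caudal part of mouse embryos at embryonic day (E) 9.5, was compared with RNA of all Osr1-GFP-positive cells sorted from E8.5 embryos. Both arrays were chosen by their labels, as 2 of the 7 arrays of a series on kidney precursors. All 7 populations came from C57BL6J embryos with an Osr1-GFP knock-in, in which green fluorescent protein (GFP) is made from the Osr1 locus, and the number of embryos pooled for a sort was not given in the sources used here. The other 5 arrays held GFP-negative cells of E8.5 embryos, the remaining GFP-positive cells and the GFP-negative cells of the E9.5 caudal part, and the gated and remaining GFP-positive cells of the E11.5 metanephric mesenchyme. The comparison follows GFP-positive cells from the first stage sampled to the population that the study enriched for nephron progenitors. Stage, body region and surface gate all differ between the 2 arrays and cannot be told apart.

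Osr1 encodes a zinc finger protein made early in intermediate mesoderm and in the lateral plate. Intermediate mesoderm gives rise to the nephric duct, the kidney and the gonads, and lateral plate mesoderm to the heart field, limb buds and body wall. Kidney-forming mesoderm expresses Pax2, Pax8, Wt1 and later Six2, the factor that keeps nephron progenitors from forming tubules too soon. At the tail end of the embryo, precursors that still add new trunk and tail tissue express Cdx factors, T, Wnt3a and Fgf4.

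Each population had 1 array, so no test between groups was possible and every fold below is a difference between 2 arrays. A level is the log2 ratio of a processed signal to the 75th percentile on that array. A gene was measured when its probe was well above background on at least 1 of the 2 arrays. Where the dimmer side was not, it was set at the higher of its own level and the lowest level well above background on its array. The fold is then given as "at least". Of the non-control spots, 72.4% were well above background on the E9.5 gated array and 70.3% on the E8.5 array. Probes spotted 10 times on each array put the spot noise of a difference at 0.18 (SD, log2), which covers neither embryos nor sorts. The E9.5 gated and GFP-negative arrays shared a slide and a scan, and the other 5, with E8.5 GFP-positive cells among them, shared another, so the slide and the groups compared cannot be told apart. In bulk RNA, fewer cells of a type and less RNA per cell cannot be told apart either.

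The sorted genes came first as a check of the labels. Osr1 stood at 1.03 in the E9.5 gate and 0.85 in E8.5 GFP-positive cells, a difference of 0.18, and was not well above background in GFP-negative cells of either stage (-4.38 at E9.5 and -3.23 at E8.5). Itga8 stood at 2.15 in the gate and -0.87 in the E8.5 cells, 8.11-fold higher. Pdgfra stood at -0.52 and 3.40, 15.1-fold lower in the gate. Both differences follow the gate, which was applied on the E9.5 side alone. In the remaining E9.5 GFP-positive cells, which lie outside the gate, Itga8 stood at 0.20 and Pdgfra at 3.44, so Pdgfra there lay within the spot noise of the E8.5 level. In mm9 (NCBI37) coordinates the Osr1 probe lies at chr12:9587390-9587449, the Itga8 probe at chr2:12028462-12028521 and the Pdgfra probe at chr5:75593888-75593947.

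Most genes of the nephron progenitor list were higher in the E9.5 gate, and most of the lists of tail bud, lateral plate and heart field, and endoderm genes were lower. The 20086 measured genes held 486 (2.42%) that reached 4-fold on the higher side of the gate and 329 (1.64%) on the lower side, with 267 and 137 of these resting on a bound. At 2-fold the counts were 2504 (12.5%) and 1412 (7.03%). These 4 percentages are the background against which each gene list is read. The median difference over all measured genes was -0.01, and 80.5% of them lay within 2-fold. The balance of the 4-fold calls depended on the scaling: 59.6% were on the higher side here, 39.2% when arrays were centred on their median, 43.5% after another background correction, 45.0% after quantile normalization and 70.0% when the percentile was taken over probes above background on every array.

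**Figure D1:**
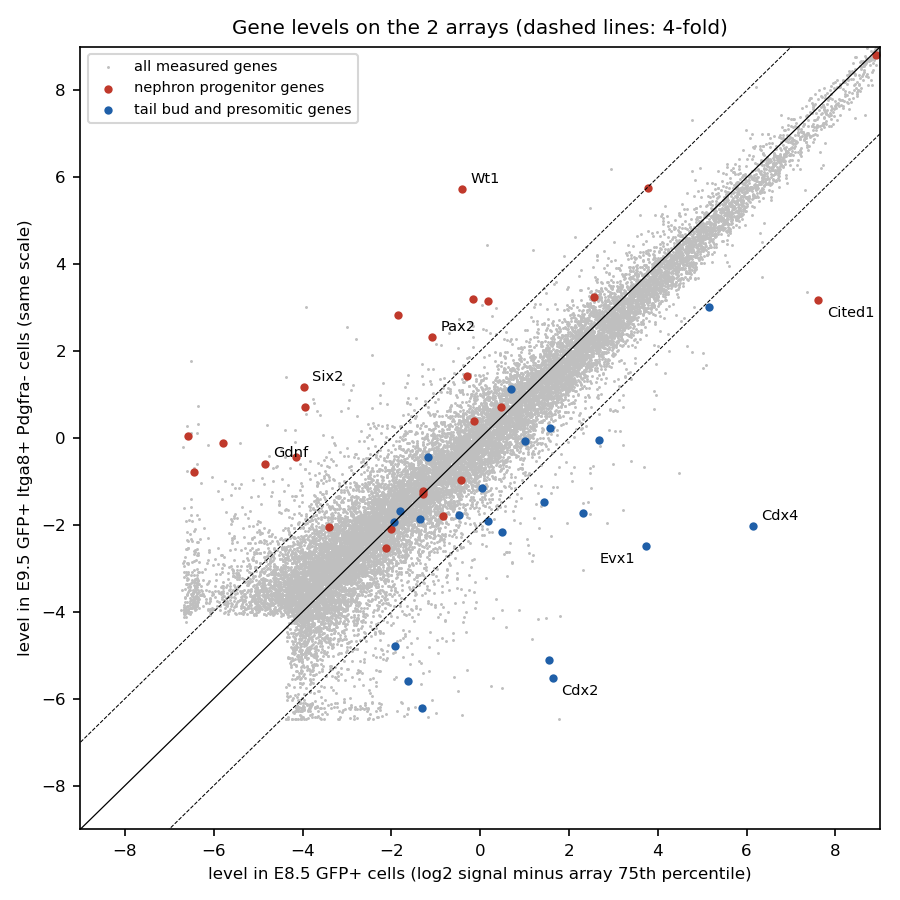
Level of each measured gene on the E8.5 GFP-positive array (horizontal axis) and the E9.5 gated array (vertical axis), as log2 signal minus the array's 75th percentile; red points are nephron progenitor genes, blue points tail bud and presomitic genes, and dashed lines mark 4-fold. Wt1 and Six2 lie above the upper dashed line, and Cdx4, Cdx2, Evx1 and Cited1 lie below the lower one.

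Genes were ranked with levels not well above background set by the rule given above, so a gene given as "at least" may differ by more than its rank shows. Ranked first on the higher side was Adh1, an alcohol dehydrogenase that can oxidise retinol, at 3.02 in the gate against -3.93 in the E8.5 cells (124-fold). Adh1 stood at -1.13 in the remaining E9.5 GFP-positive cells and at -2.78 in E9.5 GFP-negative cells, so the gate was the highest of the 7 arrays. Wt1, a zinc finger factor needed for kidney and gonad formation, stood at 5.73 against -0.41 (70.4-fold). It stood at 3.83 in the remaining E9.5 GFP-positive cells, 0.13 in E9.5 GFP-negative cells and 5.90 in the E11.5 gate. Six2 stood at 1.16 against -3.97 (35.1-fold), with its other probe at a difference of 4.91. Six2 was at -2.63 in the remaining E9.5 GFP-positive cells and reached 4.10 in the E11.5 gate. Fgf20, a growth factor that maintains nephron progenitors, stood at 0.06 against a signal not well above background at E8.5 (at least 35.7-fold), and at 0.69 in the E11.5 gate.

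Other genes among the 15 largest are not kidney factors by name. Clec10a, a lectin receptor known from macrophages and dendritic cells, was at least 117-fold higher, with levels of 1.78 in the E9.5 gate and 2.21 in the E11.5 gate and -3.54 in the remaining E9.5 GFP-positive cells. Of the 13 measured genes of the haematopoietic progenitor and macrophage marker list, 1 was at least 2-fold higher, the macrophage gene Cd68 (2.39-fold), and 3 were lower (Kit, Tal1 and Lmo2), with a median of 0.05. The summed signal of that list was 45.4 at E8.5 and 31.0 in the gate, in multiples of each array's 75th percentile, and the part of such cells in the Clec10a value was not tested. Ppargc1a, a coactivator of mitochondrial genes, was 46.5-fold higher (2.55 against -2.99, and 3.46 by its other probe), and the neurotensin receptor Ntsr1 33.6-fold (2.27 against -2.80, but 0.62 by its other probe). The cartilage matrix gene Matn1 was at least 42.9-fold higher. Trpv5, a calcium channel, and the olfactory receptor Olfr397 were at least 57.3-fold and 54.4-fold higher and were well above background on the E9.5 gated array alone among the 7. Gm3515, Gm8364, A230070E04Rik and 9030625G05Rik, transcripts with no established role, were at least 41.8-fold, 31.8-fold, 34.1-fold and 37.1-fold higher.

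On the lower side Cdx4 ranked first by the same rule. This caudal homeobox factor, which acts upstream of Hox genes, stood at -2.03 in the gate against 6.15 in E8.5 GFP-positive cells (289.5-fold lower). Cdx4 stood at 2.12 in the remaining E9.5 GFP-positive cells and 3.73 in E9.5 GFP-negative cells, and was not well above background at E11.5. Its relative Cdx2 was at least 75.9-fold lower (1.63 at E8.5) and Evx1, a homeobox gene of the primitive streak and tail bud, 74.3-fold lower (-2.48 against 3.73). Dll3, the Notch ligand of presomitic mesoderm, was at least 71.8-fold lower by its brighter probe and had a log2 difference of -1.61 by the other.

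Further genes of the early embryo stood in this group. Tex19.1, a gene of pluripotent and germ cells, was at least 83.3-fold lower, and Cer1 and Cfc1, a Nodal inhibitor and a Nodal co-receptor, at least 54.9-fold and 34.4-fold. Foxa2 and Foxa1, factors of endoderm and notochord, were at least 44.5-fold and 28.9-fold lower. The T-box factor of hindlimb mesoderm Tbx4 was 29.5-fold lower (-1.66 against 3.23) and Hand2, a factor of heart and limb mesoderm, at least 30.9-fold. Phlda2, an imprinted growth regulator, stood at -0.80 against 4.47 (38.5-fold lower), and the embryonic globin Hbb-bh1 at -3.05 against 2.32 (41.4-fold lower). The same E9.5 minus E8.5 differences were taken in the remaining GFP-positive and in GFP-negative cells (log2, in that order). Phlda2 gave -4.21 and -4.96, Tex19.1 -2.59 and -4.12, and Tbx4 -1.26 and -5.49. Cfc1 gave -5.12 (a bound) and -3.90, and Cer1 -2.08 and -0.60. Foxa2 gave -0.40 and 0.25, Foxa1 -0.89 and 0.34, Hand2 0.09 and -0.55, and Hbb-bh1 -0.06 and -1.04. Opn5, a light-sensing opsin, was at least 60.2-fold lower and stood at 1.80 in E8.5 GFP-positive cells but at no more than -3.58 on any other array.

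**Figure D2:**
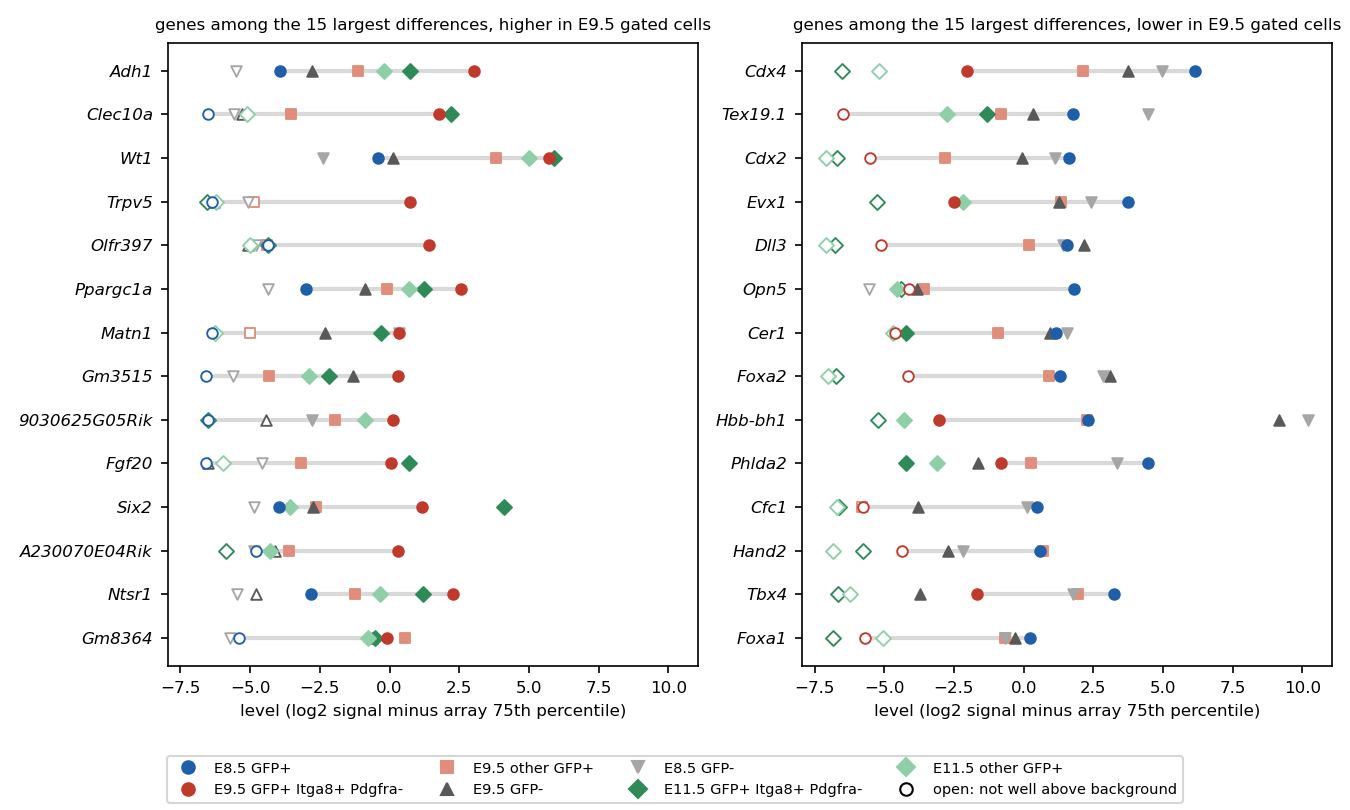
Levels on all 7 arrays (log2 signal minus the array's 75th percentile) of genes named in the text from the 15 top-ranked per direction; the grey bar joins E8.5 GFP-positive (blue circle) and E9.5 gated (red circle) levels, and open symbols were not well above background. Of the lower genes, Cdx4, Evx1 and Tbx4 keep levels of 2.12, 1.35 and 1.97 in the remaining E9.5 GFP-positive cells, which lie outside the gate.

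Promoter sequences are shown for Adh1 and Cdx4, the first-ranked gene of each direction, and for Six2 and Cdx2, a nephron progenitor and a caudal factor among the top-ranked, chosen after their values were seen. RefSeq sequences (GRCm38.p6) run from 250 bases before to 50 after the start, 5′ to 3′ on the gene's strand, and were present for 19 of the 30 genes above. Capitals mark matches, on either strand, to 4 short motifs, with overlapping matches joined. The first, TATAAA, is the core promoter box that positions the polymerase. The second, AGATAA, is of the kind known to be bound by zinc finger factors such as Gata3 and Gata4. The third, TTTATG, is known as a binding sequence of the Cdx factors. The fourth, ACGTG, is the core of the sequence known to be bound by hypoxia-inducible factors.
Six2, chr17:85688205-85688504 (-): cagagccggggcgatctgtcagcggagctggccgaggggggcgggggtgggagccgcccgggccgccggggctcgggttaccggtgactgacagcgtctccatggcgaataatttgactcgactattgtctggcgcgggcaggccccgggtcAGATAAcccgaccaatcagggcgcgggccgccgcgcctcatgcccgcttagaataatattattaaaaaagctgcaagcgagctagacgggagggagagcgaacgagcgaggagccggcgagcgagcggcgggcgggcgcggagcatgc
Adh1, chr3:138277335-138277634 (+): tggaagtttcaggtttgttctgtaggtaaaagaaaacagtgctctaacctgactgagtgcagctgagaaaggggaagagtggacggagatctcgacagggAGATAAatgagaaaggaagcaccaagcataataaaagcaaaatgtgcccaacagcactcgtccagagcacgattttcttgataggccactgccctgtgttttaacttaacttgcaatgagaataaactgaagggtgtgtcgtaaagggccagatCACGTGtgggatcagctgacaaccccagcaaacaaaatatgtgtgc
Cdx4, chrX:103321148-103321447 (+): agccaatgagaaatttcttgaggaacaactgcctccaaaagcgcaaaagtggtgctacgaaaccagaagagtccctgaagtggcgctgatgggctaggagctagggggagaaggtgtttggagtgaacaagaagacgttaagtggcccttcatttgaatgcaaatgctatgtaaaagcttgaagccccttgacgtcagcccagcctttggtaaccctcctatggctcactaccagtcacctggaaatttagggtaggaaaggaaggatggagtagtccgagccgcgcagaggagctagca
Cdx2, chr5:147307200-147307499 (-): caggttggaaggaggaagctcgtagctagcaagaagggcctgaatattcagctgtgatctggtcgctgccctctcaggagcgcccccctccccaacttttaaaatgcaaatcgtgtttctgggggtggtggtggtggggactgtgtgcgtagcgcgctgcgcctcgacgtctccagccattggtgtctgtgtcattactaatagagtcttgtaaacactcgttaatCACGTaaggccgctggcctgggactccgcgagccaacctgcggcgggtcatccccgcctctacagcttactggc

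Among 32851 RefSeq promoters of this length, 13.6% held TATAAA, 11.2% AGATAA, 11.9% TTTATG and 19.6% ACGTG. Six2 and Adh1 each held AGATAA, at -98 and -150 bases from the start. Adh1 also held ACGTG on both strands, in matches that overlap just after the start, and Cdx2 held it once, at -24. None of the 4 motifs was found in the Cdx4 window. Over all windows found for the 30 genes, some with several starts, AGATAA was in 3 of 7 on the higher side and 3 of 14 on the lower, and TTTATG in 2 of 7 and 0 of 14, counts given as a description of these letters alone.

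Of the 26 nephron progenitor genes, all measured, 15 were at least 2-fold higher in the gate and 1 was lower, with 12 and 1 past 4-fold. The list median was 1.84, and 0.68 over the 21 members above background on both arrays. Beside Wt1, Six2 and Fgf20, the factor Pax8 stood at 0.72 against -3.95 (25.5-fold), and in the remaining E9.5 GFP-positive and GFP-negative cells it was not well above background. Pax2 stood at 2.32 against -1.07 (10.5-fold), and its other probes gave 2.29 and 1.27. Crym, a thyroid hormone binding protein known from cap mesenchyme, was 25.6-fold higher (2.84 against -1.84), and the transcriptional coactivator Eya4 at least 31.7-fold.

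Ligands and receptors of the later kidney were part of the same list. Gdnf, which calls the ureteric bud into the mesenchyme, stood at -0.59 in the gate and was not above background at E8.5, a log2 difference of at least 4.25, and its co-receptor Gfra1 differed by at least 4.32. Rspo1, an activator of Wnt signalling, differed by 2.96 (7.81-fold). Gdnf and Gfra1 were chosen after their values were seen. The 1 lower member was Cited1, a transcriptional co-regulator that later marks the cap mesenchyme, at 3.18 against 7.62 (a log2 difference of -4.44). Cited1 stood at 4.45 in the remaining E9.5 GFP-positive cells and 4.62 in E9.5 GFP-negative cells, so all 3 E9.5 arrays lay below the E8.5 level. In the remaining E9.5 GFP-positive cells, which share the E8.5 array and its slide, 7 of 25 measured members were at least 2-fold higher than at E8.5 (background 15%) and 1 lower, with a median of 0.48. In GFP-negative cells across the same stages, 6 of 22 were higher (background 9%) and 1 lower, with a median of 0.34.

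Neighbouring lists of the urogenital mesoderm showed smaller differences. Of 18 intermediate mesoderm and nephric duct genes, 5 reached 2-fold on the higher side and 1 on the lower, with a median of 0.54. The higher ones were Pax8, Pax2, Osr2 (a log2 difference of at least 3.43), Emx2 (4.90-fold) and Foxc2 (2.11-fold), and the lower one was Gata3, a factor of the nephric duct, at -0.92 against 0.09. Of 12 measured coelomic epithelium and gonad genes, 4 were higher (Wt1, Rspo1, Emx2 and the mesothelial gene Upk3b, at least 2.47-fold) and 1 lower, the cardiac and gonadal factor Gata4 (-2.07 against 1.32, 10.4-fold lower). Of 14 podocyte and tubule genes, 3 were higher and 3 lower, with a median of 0.06 that turns below 0 under another scaling. Foxc2 was among the higher ones, and the lower ones were Cubn and Hnf4a (at least 5.64-fold and 4.59-fold), both of proximal tubule and yolk sac, and Podxl (3.46-fold).

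Tail bud and presomitic genes were the list with the lowest median, -2.40. Of its 22 members, 17 were at least 2-fold lower in the gate, 13 of them at least 4-fold, and 0 were higher. Over the 17 members above background on both arrays the median was -1.33. Cdx1 followed Cdx4, Cdx2, Evx1 and Dll3 at -1.73 against 2.32 (16.5-fold lower). T, the factor of the notochord and tail bud, was at least 9.91-fold lower, and Wnt3a and Fgf4, the ligands made there, at least 7.89-fold and 6.43-fold. The 5 members within 2-fold were Fgf17, Mesp2, Nkx1-2, Fgf8 and Gdf11.

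Other arrays place these values. In the remaining E9.5 GFP-positive cells, set against the same E8.5 array on the same slide, 15 of the 22 members were at least 2-fold lower (background 3.52%) and 0 higher, with a median of -2.12. Cdx2 there was at -2.84, T and Wnt3a were not well above background and Sp5, a Wnt target, was at -1.72 against 1.44 at E8.5. In GFP-negative cells, 5 of 22 were at least 2-fold lower at E9.5 (background 6.29%) and 1 was higher, with a median of 0.02. T stood at -0.98 and -0.92 in E9.5 and E8.5 GFP-negative cells and Wnt3a at -1.46 and -1.22. Both lay within 2-fold between those arrays. Endoderm markers were also lower in the gate (summed signal 51.6 at E8.5 and 10.6 in the gate, in multiples of the 75th percentile), and their part in the tail bud values was not tested.

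**Figure D3:**
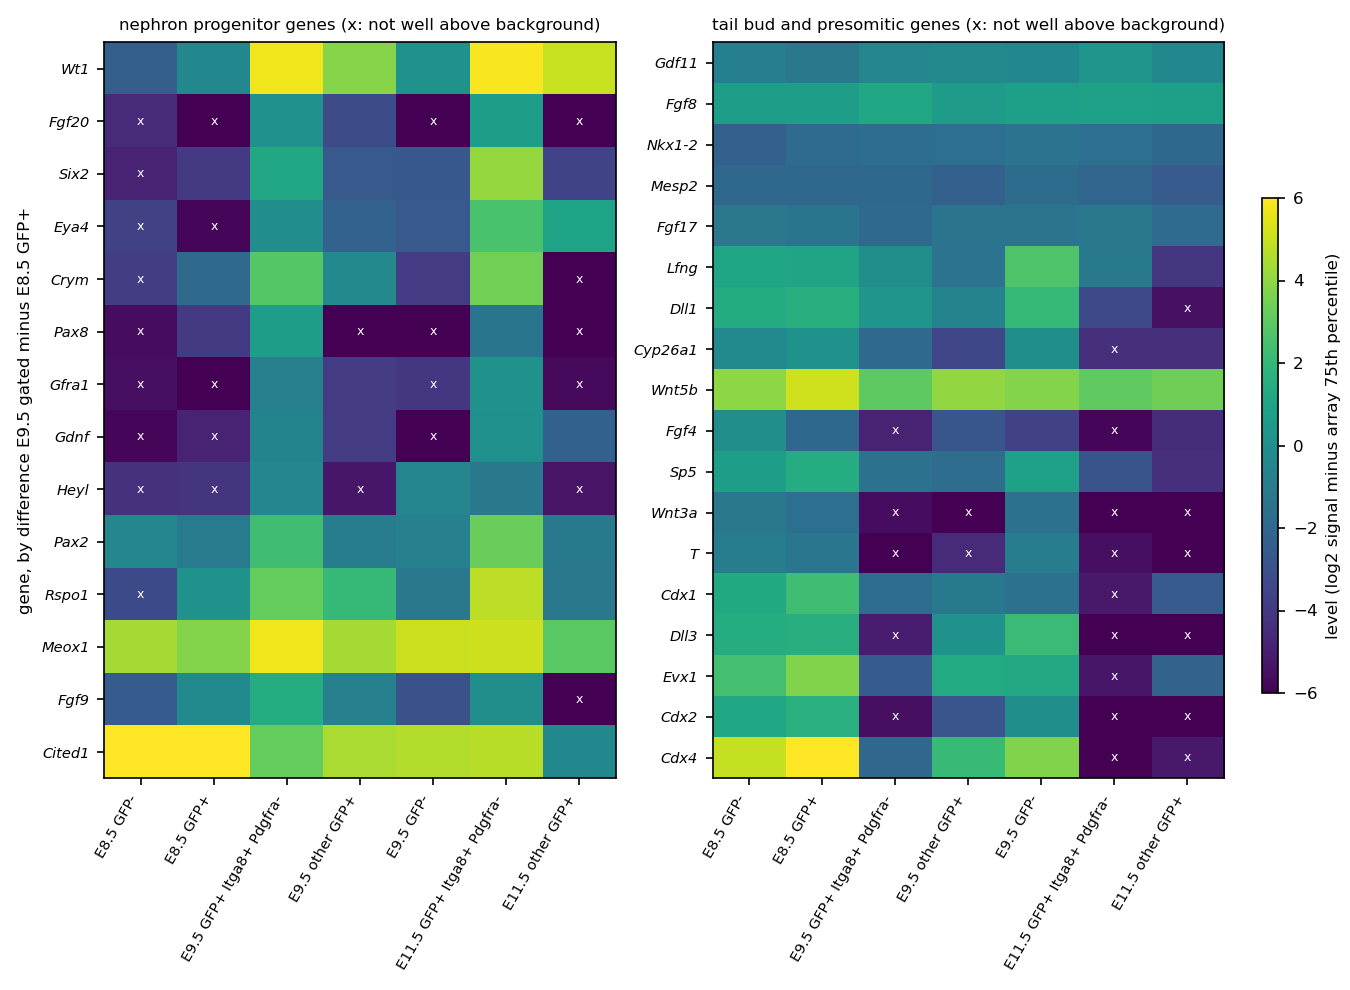
Levels (colour, log2 signal minus the array's 75th percentile) of the nephron progenitor genes and the tail bud and presomitic genes named in the text, on the 7 arrays, ordered by the difference between E9.5 gated and E8.5 GFP-positive cells, with x marking levels not well above background; the genes named lean towards the larger differences, and the other members are not drawn. On the left, Fgf20, Gfra1, Gdnf, Eya4 and Heyl are above background in the E9.5 gate and not in E8.5 GFP-positive cells; on the right, Cdx2, Dll3, T, Wnt3a and Fgf4 are the reverse.

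Lateral plate and heart field factors were lower as a group. Of 26 members, 15 were at least 2-fold lower in the gate, 11 of them at least 4-fold, and 1 was higher (Alx4), with a median of -1.63. Hand2, Tbx4 and Gata4 are given above. Tbx3, a T-box factor of limb and heart, stood at -1.74 against 2.48 (18.6-fold lower), Tbx5, the forelimb and heart factor, was at least 12.5-fold lower, and Hand1 stood at -0.80 against 2.46 (9.61-fold lower). The remaining E9.5 GFP-positive cells gave other values: 5 of 26 members were at least 2-fold lower there (background 3.52%) and 5 higher (background 15%), with a median of 0.14, and Tbx3, Tbx5 and Hand2 stood at 2.30, 0.30 and 0.68. No test of the difference between the gated and remaining cells was possible.

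Of 20 contractile genes of heart and smooth muscle, 8 were at least 2-fold lower, 1 was higher and 11 lay within 2-fold. Their median of -0.36 was close to that of the 16 housekeeping genes, -0.42. Myh6 and Myl4, contractile proteins of atrial muscle, stood at -1.95 against 1.96 (15.1-fold lower) and -1.50 against 2.32 (14.2-fold lower), and Tnnt2, cardiac troponin T, was at least 22.1-fold lower. The other probe of Myh6 gave -0.83. The 1 higher gene was Nppa, a natriuretic peptide, at -1.64 against -3.77. Myh6, Myl4 and Tnnt2 stood at -1.98, -2.37 and -3.03 in the remaining E9.5 GFP-positive cells as well. The second heart field and cardiomyocyte marker list had a summed signal of 15.8 in E8.5 GFP-positive cells, 7.80 in the gate and 12.3 in the remaining E9.5 GFP-positive cells, in multiples of each array's 75th percentile. The E8.5 sort took whole embryos and the E9.5 sorts the caudal part, and the part of heart tissue in these differences was not tested.

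Hox genes, which give body levels along the trunk in the order of their paralog groups, differed by group. Of the 12 members of groups 1 to 4, 10 lay within 2-fold and 2 were lower, among them Hoxd1, at -0.68 against 2.47 (8.87-fold). The median was -0.17, which turns above 0 under another scaling. Of the 11 members of groups 5 to 8, 10 lay within 2-fold and Hoxa6 was 2.68-fold higher. The median was 0.63, and 10 of 11 lay above 0, Hoxd8 being the exception at -0.05. Of the 7 members of groups 9 and 10, 4 were at least 2-fold higher and 0 lower, with a median of 1.19. These were Hoxc10, at 4.33 against 1.19 (8.79-fold), Hoxa10 (2.96-fold), Hoxc9 (2.90-fold) and Hoxd10 (2.29-fold). In the remaining E9.5 GFP-positive cells 3 of these 7 members were at least 2-fold higher than at E8.5 (background 15%), with a median of 0.92. Of groups 5 to 8, 2 of 11 were higher there, with a median of 0.10.

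Groups 11 to 13, the last along the axis, gave 0 higher and 2 lower of 7 measured members, with a median of -0.84, and 0.03 over the 5 above background on both arrays. The lower ones were Hoxa13, at -0.22 against 1.24, and Hoxd13, at -1.46 against -0.17. Hoxa11, which acts in the metanephric mesenchyme, was at 3.12 against 2.57, and Hoxd12 at -1.73 against -2.42. Hoxd11 stood at -1.19 against -1.22, but its other probe was higher by 4.26, so its difference is uncertain. In the remaining E9.5 GFP-positive cells Hoxd13, Hoxd11 and Hoxd12 stood at 2.61, 2.08 and -0.34. There 4 of the 7 measured members were at least 2-fold higher than in the E8.5 cells (background 15%). In GFP-negative cells 10 of 11 measured genes of groups 1 to 4 were at least 2-fold higher at E9.5 (background 9%). So were 10 of 11 of groups 5 to 8 (median 1.75), 6 of 7 of groups 9 and 10 (median 2.66) and 5 of 8 of groups 11 to 13. That comparison sets a caudal part against whole embryos.

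Somite genes differed in both directions. Of 14 measured members, 5 were at least 2-fold higher and 2 lower, with a median of 0.61. Pax9, a factor of the sclerotome, was at least 16.8-fold higher (1.54 by its other probe, log2), Meox2 4.53-fold, Meox1 (5.75 against 3.78) 3.93-fold, and Foxc2 and Myog by 1.08 and 1.06. The lower ones were Tcf15, a factor of epithelial somites, at 5.88-fold, and Tbx18, at 2.84-fold. Pax9 stood at -0.74 in the remaining E9.5 GFP-positive cells and 1.31 in GFP-negative cells, both above its -1.03 in the gate.

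Stromal and mesenchymal genes were as mixed, with 5 of 21 measured members higher and 6 lower (median 0.16, which turns below 0 under another scaling). Lum and Dcn, small matrix proteoglycans, were 6.30-fold and 4.04-fold higher. Snai1, a factor of mesenchyme, was at least 5.06-fold lower, Twist1, another, 4.21-fold, and Vcam1, an adhesion molecule, was 3.96-fold lower but 1.45 higher (log2) by its other probe. Pdgfrb, the partner of the receptor that the gate removed, stood at 0.94 against 2.46 (2.86-fold lower). Of 30 extracellular matrix genes, 4 were higher and 7 lower (median 0.06, which turns below 0 under another scaling). Elastin (Eln) was at least 6.66-fold lower, fibrillin 1 (Fbn1) 4.16-fold, Tnc and Hapln1 3.31-fold and 3.24-fold, and Col2a1, the cartilage collagen, 4.83-fold higher. Of 15 measured cadherins and claudins, 2 were higher (Cdh4, 4.49-fold, and Cldn5, 2.07-fold) and 2 lower (the polarity gene Crb2, 4.71-fold, and Cldn6, 2.47-fold).

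Retinoic acid, made from vitamin A by Rdh10 and Aldh1a2 and cleared by Cyp26 enzymes, patterns the trunk mesoderm. Of 18 measured genes of this pathway 3 reached 2-fold on the higher side and 5 on the lower (median -0.10, which turns above 0 under another scaling). The higher ones were Adh1, Rdh10 (3.60 against 1.71, 3.70-fold) and Crabp2, a retinoic acid carrier, by 1.36. The lower ones were the receptor Rarg (at least 28.1-fold), the retinol carrier Rbp4 (10.4-fold), Cyp26a1 (4.26-fold), the carrier Crabp1 (4.15-fold) and the receptor Rara, by -1.25. The synthesising enzyme Aldh1a2 stood at 3.09 against 3.56. Rarg was at 0.01 in the remaining E9.5 GFP-positive cells and Rdh10 at 1.39.

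Most fibroblast growth factor genes lay within 2-fold. Of 24 measured ligands, receptors and targets, 5 were higher (20.8%) and 2 lower (8.33%), with a median of 0.42. Over all measured genes these shares were 12.5% and 7.03%. The higher ones were the ligands Fgf20 and Fgf9 (3.28-fold), the receptor Fgfr2 by 1.20, and the feedback inhibitors Spry1 (5.46-fold) and Spred2 (2.62-fold). The lower ones were Fgf4 (at least 6.43-fold) and Fgf15 (2.46-fold), and Fgf8, the ligand of the tail bud, stood at 1.14 against 0.69. Under the other scalings tried, 4 to 5 members were higher and 0 to 4 lower, with medians of 0.11 to 0.60.

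Wnt pathway genes were lower more often. Of 30 measured ligands, inhibitors and targets, 14 were at least 2-fold lower, 8 of them at least 4-fold, and 3 were higher, with a median of -0.54. Rspo3, an activator of the pathway, stood at -1.16 against 2.49 (a log2 difference of -3.65), the ubiquitin ligase Rnf43 was at least 8.21-fold lower, the target Sp5 7.58-fold and the inhibitor Dkk1 7.24-fold. Axin2, a general target, had a log2 difference of -2.23 (-0.56 by its other probe). The 3 higher members were Rspo1, the receptor Lgr4 by 1.55 and the secreted modulator Sfrp2 (7.31 against 4.77). Sp5, Wnt3a and Wnt5b are counted among tail bud genes too. Axin2 was chosen after its value was seen and was at 2.61 in the remaining E9.5 GFP-positive cells.

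Of 25 measured Bmp and Tgf-beta genes, 3 were higher and 9 lower, with a median of -0.25. Msx2 and Msx1, homeobox targets of Bmp signalling, stood at 3.35 against 7.35 (15.9-fold lower) and -1.55 against 0.79 (5.06-fold lower), and Msx2 was at 6.55 in the remaining E9.5 GFP-positive cells. The higher ones were Tgfbi, a matrix protein induced by Tgf-beta (6.76-fold), Tgfb3 (5.55-fold) and Id4 (4.69-fold).

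Notch and Hedgehog genes were split. Of 19 Notch genes, 4 were higher and 5 lower (median 0.14, which turns below 0 under another scaling). Heyl, a Notch target, was at least 13.1-fold higher and was not above background in the remaining E9.5 GFP-positive cells. Dtx4, Hey1 and Dlk1 were higher by 1.18, 1.16 and 1.10. The lower ones were Dll3, the targets Hes5 (1.70 against 3.95, 4.75-fold) and Nrarp (2.79-fold), Dll1 (2.52-fold) and Lfng (-1.08). Of 14 Hedgehog genes, 4 were higher and 4 lower (median 0.02, which turns below 0 under another scaling). Shh itself was at least 4.36-fold lower and its target Gli1 stood at 0.31 against 1.81 (0.24 by its other probe, log2). The receptor Ptch1 and the factor Foxf1, a target in lateral mesoderm, differed by -1.01 and -2.72. Dhh, another ligand, was at least 4.66-fold higher, the decoy receptor Hhip at least 3.59-fold, and the co-receptors Gas1 and Cdon by 1.45 and 1.04.

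Of 29 genes of early developmental timing, 10 were at least 2-fold lower and 2 higher, with a median of -0.31. L1td1 and Esrrb, genes of pluripotent cells, were at least 9.42-fold and 6.32-fold lower. Sall4 stood at -0.19 against 2.70 (7.42-fold lower), though its other probes gave 0.65 and -0.40. Dnmt3b and Nr6a1 were 3.45-fold and 3.38-fold lower. The higher ones were Fgf5 (4.15-fold) and Dnmt3a by 1.15. Lin28a, an RNA-binding protein of immature cells, stood at 3.97 against 5.60, and in the E11.5 gate at 0.46.

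Glycolysis and hypoxia response genes gave 7 lower and 2 higher of 30, with a median of -0.64. The glucose transporters Slc2a3 and Slc2a1 stood at -0.67 against 3.70 (20.7-fold lower) and 3.41 against 5.38 (3.91-fold lower), the enzyme Aldoc was 7.33-fold lower and the peptide Adm 5.91-fold. The 16 housekeeping genes all lay within 2-fold, with a median of -0.42. In the remaining E9.5 GFP-positive cells Slc2a3 differed from E8.5 by -2.20 (log2). The higher genes were Hk1 (3.04-fold, 0.66 by its other probe) and Ndrg1 by 1.12.

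Cell cycle genes differed little: 27 of 29 lay within 2-fold, with a median of -0.26. The 2 exceptions were Cdkn1c, an imprinted inhibitor of the cycle, at 3.56 against 1.67 (3.70-fold higher), and Tyms (2.01-fold higher). Cdkn1c was at 0.85 in both other E9.5 populations. Of 28 measured imprinted genes, 21 lay within 2-fold, 3 were higher (Cdkn1c, Dlk1 and Kcnq1ot1) and 4 lower (Phlda2, Slc38a4, Igf2r and Snrpn), with a median of 0.13 that turns below 0 under another scaling. Of 21 measured immediate early genes, which respond within minutes to stimuli and cell handling, 9 were higher and 2 lower, with a median of 0.64. Egr2 was at least 7.41-fold higher and Fos and Egr1 were higher by 2.07 and 2.03 (log2). Those 3 stood at -1.98, 0.24 and 2.99 in the remaining E9.5 GFP-positive cells. The part of cell handling in these values was not tested.

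Markers of other cell types were read beside these lists. Of 16 measured endoderm genes, 10 were at least 2-fold lower in the gate, 9 of them at least 4-fold, and 0 were higher (median -2.16, and -0.75 over the 9 above background on both arrays). Beside Foxa2 and Foxa1, Krt8 stood at -0.15 against 3.21 (10.3-fold lower), and the yolk sac and liver genes Ttr and Afp were at least 9.96-fold and 7.80-fold lower. The summed signal of the list was 51.6 at E8.5, 10.6 in the gate and 25.4 in the remaining E9.5 GFP-positive cells. Of 11 measured red blood cell genes, 5 were lower and 2 higher (median -0.92), with a summed signal of 16.6 at E8.5 and 8.95 in the gate against 2929 in E8.5 GFP-negative cells. Gata1 and Klf1, defining factors of that lineage, were not well above background on either array compared, and Nfe2, another, was higher by at least 3.42 (log2) in the gate.

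Endothelial genes were lower in 7 and higher in 2 of 20 (median -0.76), with a summed signal of 47.2 at E8.5 and 24.8 in the gate. In the remaining E9.5 GFP-positive cells 11 of 20 were lower than at E8.5 (background 3.52%) and 2 higher. Their median there was -1.11 and their summed signal 17.1. In GFP-negative cells 9 of 19 were lower at E9.5 (background 6.29%) and 0 higher, with a median of -0.90. In the gate Sox7 was 5.79-fold lower and Etv2, which starts the blood vessel lineage, 2.90-fold, while Emcn was 6.06-fold higher. Neural tube genes were lower in 4 of 13, among them Tubb3 (4.77-fold) and Hes5, and higher in 1, Neurog1 (at least 4.32-fold), with a summed signal of 31.8 and 10.5 against 199.8 in E9.5 GFP-negative cells. Of 9 measured neural crest genes, 3 were higher, among them Tfap2a, and 1 lower (Ednrb, 3.75-fold). The surface ectoderm list gave 1 higher and 2 lower of 13, and the germ cell list 0 and 1 of 8. All 5 sex-linked genes lay within 2-fold. How far any endoderm, heart, blood vessel or neural cells in the E8.5 sort take part in the lower levels of the gate was not tested.

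**Figure D4:**
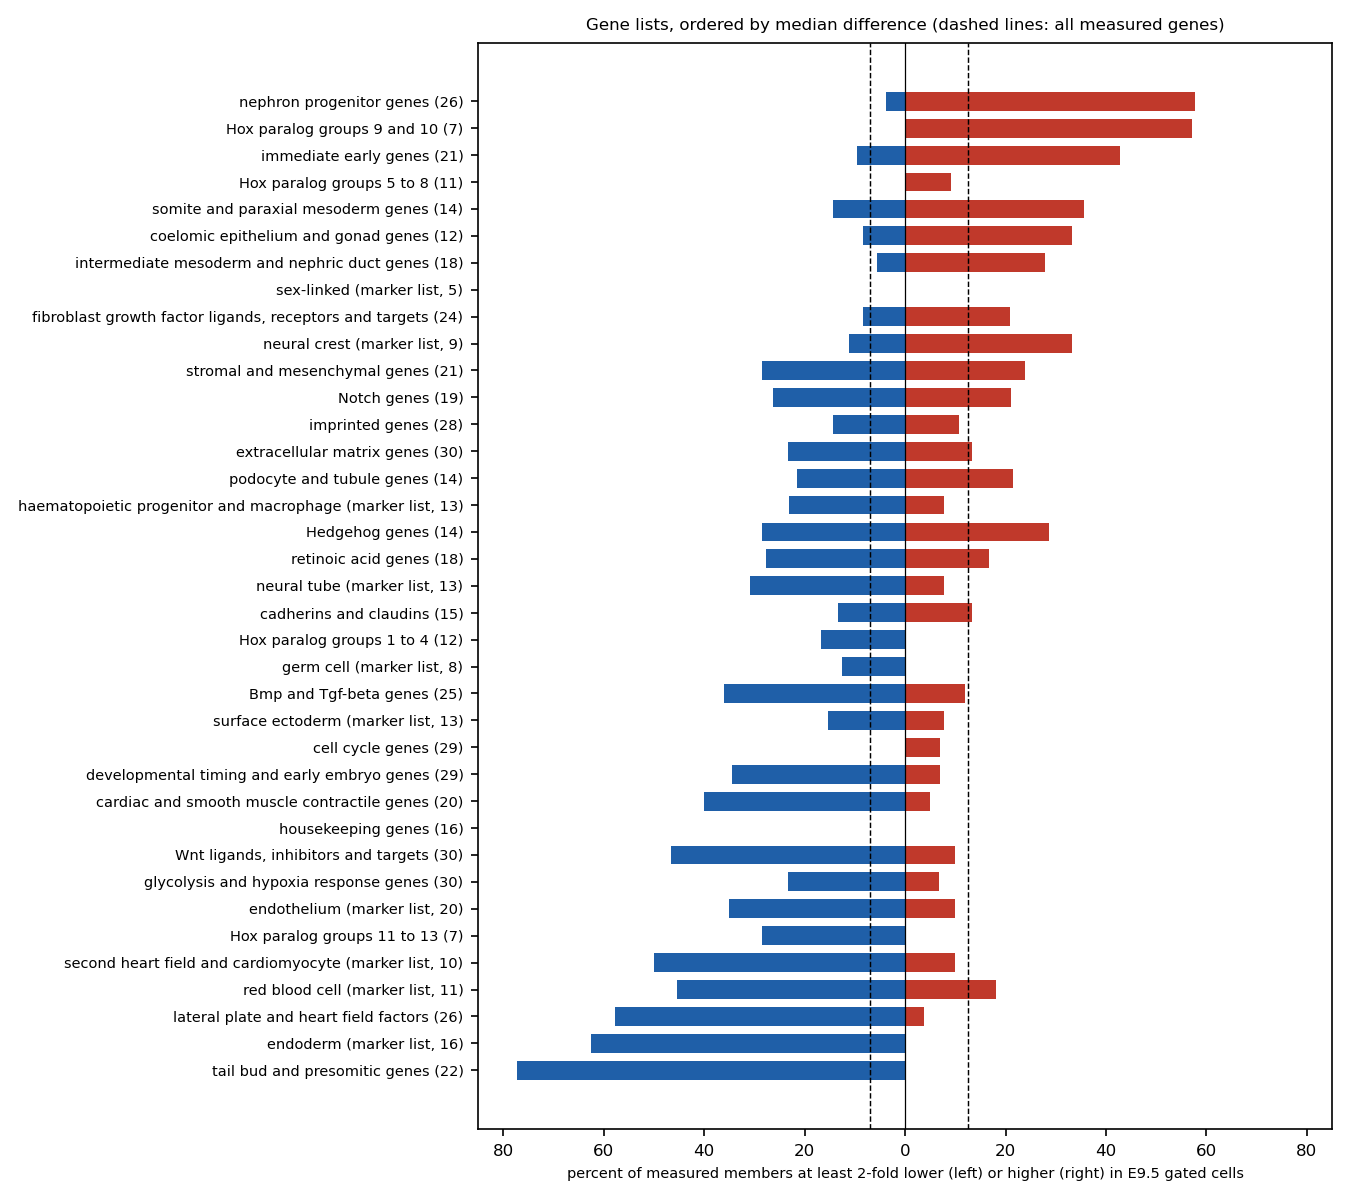
Percent of measured members of each list that were at least 2-fold lower (blue, left) or higher (red, right) in the E9.5 gate than in E8.5 GFP-positive cells, ordered by median difference, with the number measured in brackets and dashed lines at 7.03% and 12.5%, the shares over all measured genes. Nephron progenitor genes stand at the top with 15 of 26 higher, and tail bud genes at the bottom with 17 of 22 lower.

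The array also carried probes named only by a genomic interval and strand, designed for long intergenic non-coding RNA. Of 16181 such probes 12060 were measured, and 382 (3.17%) were at least 4-fold higher in the gate and 70 (0.580%) lower, with a median of 0.26. Probes of 1 chromosome are not reported here but remain in these counts. Of the other probes with the largest differences, some fell together and others lay in separate intervals (mm9). In chr8:67542714-67561694, plus strand, 4 probes differed by -5.42, -5.35, -4.97 and -4.06 (log2). In 2 overlapping intervals that end at chromosome 1 position 42771337, 3 probes differed by 4.81 or more, 1 of them of the minus strand. Outside the chromosome left out, the largest difference on the higher side, at least 5.96, was in chr9:39982939-39992189. Probe sequences of the most different probe on chromosome 8, its neighbour in the same interval, the chromosome 1 probe that was above background on both arrays and the chromosome 9 probe are shown in lower case throughout, as no motif was searched in them.
chr8:67559601-67559660 (log2 difference -5.42): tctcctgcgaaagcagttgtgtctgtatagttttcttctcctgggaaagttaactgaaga
chr8:67560939-67560998 (-5.35): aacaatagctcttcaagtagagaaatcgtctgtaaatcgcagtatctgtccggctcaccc
chr1:42769926-42769985 (4.81): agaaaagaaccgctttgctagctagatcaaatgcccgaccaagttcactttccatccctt
chr9:39989621-39989680 (at least 5.96): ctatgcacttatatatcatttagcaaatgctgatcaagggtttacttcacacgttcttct

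The first chromosome 8 probe stood at -2.78 in the gate and 2.65 in E8.5 GFP-positive cells, and at -0.70 in the remaining E9.5 GFP-positive cells. In GFP-negative cells it stood at 2.48 at E9.5 and 1.18 at E8.5. Its neighbour stood at -2.17 and 3.18 on the 2 arrays compared, at 0.23 in the remaining GFP-positive cells, and at 3.08 and 2.17 in GFP-negative cells of E9.5 and E8.5. Both were therefore lower in the gate than on the other 4 arrays of E8.5 and E9.5, a pattern shared by the 4 probes of the interval. The chromosome 1 probe stood at 0.63 in the gate and -4.18 in the E8.5 cells, and at 0.58 in E9.5 GFP-negative cells. The chromosome 9 probe stood at 0.86 in the gate and was well above background on 1 other array, E9.5 GFP-negative cells, at -3.43.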

How the data were processed

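One Agilent 1-colour array was hybridised per population, after whole-transcriptome amplification and Cy3 labelling, per the labels' protocols. The deposited values are spot intensities that the authors read out of the scans; the submitters' processing notes name Agilent Feature Extraction 10.7.3.1, and the value table repeats the processed signal of all 62976 spots. Levels are log2 processed signal minus the log2 of each array's 75th percentile. Control spots and outlier-flagged spots (143 and 136 on the arrays compared) were left out, and no spot was saturated. Spots of a probe were averaged, and the probe brightest on average across the 7 arrays stands for a gene. The lowest level well above background was -5.10 at E8.5 and -4.61 in the gate. Of 55681 probes, 26310 were named through RefSeq, 7085 by the array and 22286 were unnamed, giving 25275 genes, 6560 of them with several probes. The list symbols Hbb-bs, Hspa1b and Rian matched no gene name on the array. Probe positions are mm9 (NCBI37), as the files give them.

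With 1 array per population there is no test and no p-value. Single genes count from 4-fold and list members from 2-fold. Named were the 15 top-ranked genes per direction whose other probes do not oppose them by over 1 log2 unit, the sort genes, all measured Hox genes, up to 6 members of each list by size of difference, and members needed to account for a count of 5 or fewer. Some genes that this rule takes are not reported here; they remain in the counts, medians and sums. Members and lists were chosen with earlier results of these data known. Alternatives were other scalings, quantile normalization, normexp background correction with an offset of 50 (limma 3.58.1 in R 4.3.3), other probe rules and other filters. Scripts in Python 3.11.15 (numpy 2.4.6, pandas 2.3.3) were tested on simulated data.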

Additional observations from a re-analysis of the deposited data

Results flagged for a closer look

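Of 235 named genes, 16 differed at least 2-fold in opposite directions in 2 comparisons that share no array. These are E9.5 gated minus E8.5 GFP-positive cells, and E9.5 minus E8.5 GFP-negative cells (log2, in that order). Stage and body region differ together in both, and the surface gate in the first as well. Many named genes were picked for the size of their difference in the first comparison. The share over all measured genes was not computed, so the count is a description alone. For Nfe2, Matn1, Dhh and 9030625G05Rik the gate value rests on a bound. The difference between the comparisons was not tested, as each population has 1 array. Among genes lower in the gate and higher in GFP-negative cells were these members of the neural tube and neural crest lists: Hes5 (-2.25 and 2.99), Fabp7 (-1.98 and 3.31), Irx3 (-1.61 and 3.00), Tubb3 (-2.25 and 1.57) and Ednrb (-1.91 and 1.63). The Hox genes Hoxd1 (-3.15 and 1.30) and Hoxd13 (-1.29 and 3.00) had the same pattern, as did the Notch target Nrarp (-1.48 and 1.48), the retinoic acid carrier Crabp1 (-2.05 and 1.44) and the mesenchymal factor Twist1 (-2.07 and 1.38). The opposite pattern, higher in the gate and lower in GFP-negative cells, was seen in Nfe2 (3.42 and -3.49) and the haem enzyme Alas2 (1.76 and -1.58). These were the 2 higher members of the red blood cell list, of which 5 of 11 measured members were lower in the gate (median -0.92). Matn1 (5.42 and -2.69), 9030625G05Rik (5.21 and -1.66), Dhh (2.22 and -1.10) and Hk1 (1.60 and -1.77) were likewise higher in the gate and lower in GFP-negative cells.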

How the results depend on the processing

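The counts of genes past 4-fold (486 higher, 329 lower) moved most with the background and the filter. After normexp correction they were 73 and 95, with both arrays required above background 219 and 192, and with neither filter nor bound 906 and 508. At 2-fold they were 2504 and 1412. Centring on the array median gave 314 higher and moved the median of all genes to -0.32, so differences under that scaling are relative to this shift. Of 176 named genes past 2-fold, 130 stayed past it on the same side after normexp, and 0 changed sign under any alternative tried. The list medians of nephron progenitor genes (1.5 to 2.02), tail bud genes (-2.71 to -1.12), lateral plate factors (-1.94 to -0.99) and endoderm genes (-2.47 to -0.80) kept their sign under the scalings tried. Signal over background limits the dim side, where 267 higher and 137 lower calls are bounds. No paired analysis was possible because each population has 1 array.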

Other observations

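Some probes were bright and nearly level on all 7 arrays. Nanog stood at 9.65 in E8.5 GFP-positive cells and 9.34 in the gate (-2.24 by its other probe, log2), Eya1 at 8.92 and 8.80, and Gata5 at 8.08 and 8.09. Trp63, a factor of surface ectoderm, stood at 6.26 and 6.01. All 4 genes were chosen after their values were seen. These probes, the brightest on average, stand for the genes in the timing, nephron progenitor, lateral plate and surface ectoderm lists, in that order. The median level of the 16 housekeeping genes was 6.41 in E8.5 GFP-positive cells and 5.90 in the gate. Whether signals this bright reflect the transcripts named was not tested.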
